A study of Caenorhabditis elegans with 3 samples.

Results

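The arms of chromosome II of Caenorhabditis elegans held 715 of the 9187 binding sites of LET-418 in the combined peak list of a ChIP-seq experiment on L3 larvae. A site was counted when it lay on II and its midpoint was at or below 4879000 (left arm) or above 12020000 (right arm) on WormBase WS220. The peak score played no part in the choice. The left arm held 397 sites and the right arm 318, against 741 in the chromosome's centre. The innermost site of the left arm lay from 4858145 to 4858343, and the nearest site beyond the limit, counted with the centre, from 4882813 to 4883216. On the other side, the innermost right arm site lay from 12023043 to 12023599 and the nearest centre site from 12010534 to 12010682.

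Worms were wild-type N2, a mixed population of males and hermaphrodites grown at 20 °C and harvested whole, so all tissues of the larva were pooled. LET-418 was precipitated with SDQ3861, an affinity-purified rabbit polyclonal antibody, in 2 ChIP replicates. The labels do not say whether the replicates were separate cultures, so their spread may be technical. A further sample, 1 input DNA library, was not analysed here. Each replicate has its own peak list of the authors, and the series has 1 combined list besides; the sources used here do not say how it was made.

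LET-418 is a worm homologue of Mi-2, a chromatin-remodelling ATPase of the CHD family that slides nucleosomes at the cost of ATP. In the NuRD complex it works with a histone deacetylase, and in the MEC complex with the zinc-finger protein MEP-1. In worms it is known for keeping germline genes off in somatic cells and for roles in vulval and larval development. The arms of worm autosomes recombine more often than the centres, hold more repeats and more chromatin with methylated lysine 9 of histone H3, and carry many members of young, fast-changing gene families. On the left arm of II these families include clusters of genes for MATH-domain and F-box proteins. No peak was assigned to a gene, a repeat or a sequence here, because no annotation or genome of the WS220 build was used.

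Sites stood somewhat less densely on the left arm than on the right, in each list. The combined list gave 81.4 peaks per Mb on the left arm (4.88 Mb), 97.7 on the right arm (3.25 Mb, measured up to 15274827, where the outermost peak ended) and 103.8 in the centre (7.14 Mb). Replicate 1 gave 154.9 on the left arm, 179.7 on the right arm and 163.1 in the centre. Replicate 2 gave 81.2, 93.7 and 115.4 in the same order. Over the whole lists the density was 91.7 in the combined list, 161.1 in replicate 1 and 98.0 in replicate 2. The left to right ratio was thus 0.833 in the combined list, 0.862 in replicate 1 and 0.866 in replicate 2. In the combined list this order depended on the score: among the better-scoring peaks, those not below the whole list's median score, the ratio was 1.08. Replicate 1, cut at its own median, kept the order, with 88.95 better-scoring peaks per Mb on the left arm and 90.94 on the right. Replicate 2, cut likewise, reversed it, with 48.99 and 46.70. The lists hold no read counts, so sequencing depth is unknown, and no density can be separated from depth or enrichment.

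The arms and the centre did not keep the same order in both replicates. Arms to centre, the density ratio was 0.847 in the combined list, 1.01 in replicate 1 and 0.747 in replicate 2, and 1.07 among the better-scoring combined peaks. Better-scoring peaks of replicate 1 numbered 89.7 per Mb on the arms and 78.1 in the centre. Those of replicate 2 went the other way, with 48.1 and 55.7. Both arms took part in the difference between the full replicate lists. Replicate 1 held 1.91 peaks on the left arm and 1.92 on the right arm for each replicate 2 peak, against 1.41 in the centre and 1.64 over the whole lists. Peaks along a chromosome are not replicates of a condition, so no p-value was computed, and the 2 replicate lists stand for the spread.

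Along the left arm, sites were gathered into a few stretches with nearly bare ones between them. In bins of 500 kb counted from the left chromosome end, bin 3 (1000001 to 1500000) held 111 combined peaks, which is 28.0% of the arm's sites. The next bin, bin 4, held 11. Bin 5 held 71 and bin 6 held 59. The other full bins held between 18 and 34, so that the 3 densest of 9 full bins carried 60.7% of all sites of the arm on 30.7% of its length. The same bins led in the replicates, with 189, 118 and 107 peaks in replicate 1 and 99, 80 and 51 in replicate 2 for bins 3, 5 and 6. The densest bin held 10.1 times as many combined peaks as the sparsest, 11.1 times in replicate 1 and 8.25 times in replicate 2.

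The right arm was more even. Its 6 full bins, counted inward from 15274827, held 66, 36, 60, 46, 49 and 40 combined peaks, from the end bin (14774828 to 15274827) to bin 6 (12274828 to 12774827). The ratio of the densest to the sparsest full bin was 1.83 in the combined list, 1.87 in replicate 1 and 2.03 in replicate 2. In both arms the outer part, taken as a whole, was denser than the inner part. Density did not rise steadily towards the chromosome ends, however. On the left arm, bins 1 and 2 from the end held 27 and 28 combined peaks, and bin 3 alone held 111. On the right arm, bin 2 from the end was the sparsest full bin, with 36. When each arm was cut at its middle, the left arm held 94.3 combined peaks per Mb outside and 68.5 inside, and the right arm 107.5 outside and 87.9 inside. The outer part was also the denser one in replicate 1 (166.0 against 143.9 on the left, 194.8 against 164.7 on the right) and in replicate 2 (96.3 against 66.0, and 107.5 against 79.9).

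**Figure D1:**
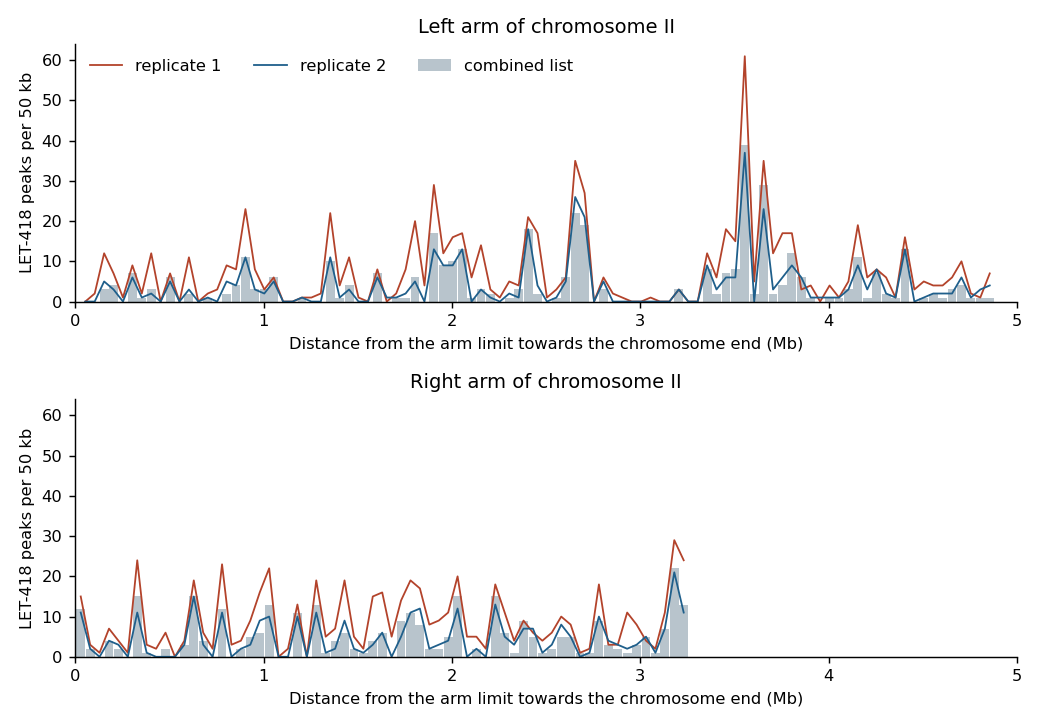
LET-418 peaks per 50 kb window (y) by distance from the arm limit towards the chromosome end in Mb (x), for the left and right arm of II. Bars are the combined list and lines the 2 replicate lists; the left arm has 1 window with 39 combined peaks and a wide bare stretch, whereas no right arm window exceeds 22.

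Windows of 50 kb gave the same contrast at a finer scale. Of 97 windows on the left arm, 29 (29.9%) held no combined peak, against 12 of 65 (18.5%) on the right arm and 15 of 142 (10.6%) in the centre. Windows with 10 or more peaks were not a larger share on the left arm. They numbered 13 (13.4%) there, 12 (18.5%) on the right arm and 20 (14.1%) in the centre. The fullest 11 windows of the left arm, 11.3% of its windows, together carried at least 50% of its sites, while this took 12 windows (18.5%) on the right arm and 27 (19.0%) in the centre. The variance of the window counts was 10.1 times their mean on the left arm, 5.33 times on the right and 5.07 times in the centre. In the replicate lists this measure was 11.9 and 9.22 on the left arm, 5.96 and 4.70 on the right, and 5.05 and 4.45 in the centre. The window counts of the 2 replicates went together, with a Spearman rho of 0.88 over the 97 left arm windows and 0.88 over the 65 right arm windows; neighbouring windows are not independent, and the 2 lists share the genome and the antibody.

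Peak-free stretches took up more of the left arm than of the right. Stretches of at least 50 kb without a combined peak numbered 30 on the left arm and covered 60.6% of it, against 19 covering 45.7% of the right arm and 37 covering 37.2% of the centre. Most of them were not bare in replicate 1. The 30 left arm stretches held the midpoints of 97 replicate 1 peaks and 17 replicate 2 peaks, and the 19 on the right arm held 77 and 4. When a stretch had to be free of peaks of all 3 lists, 21 stretches of at least 50 kb covered 38.6% of the left arm and 5 covered 11.9% of the right arm, against 17 covering 16.7% of the centre.

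The longest stretch without a combined site on the left arm ran over 391 kb, from 1663800 to 2054949. It held 6 replicate 1 peaks, with a highest score of 9.22, and 1 replicate 2 peak with a score of 5.73. Replicate 2 was empty over nearly the same span, from 1663809 to 2054658, while the longest empty stretch of replicate 1 was 184 kb, from 1663821 to 1848277. The next were 151 kb from 3272192 to 3423064, with 2 replicate 1 peaks and 0 replicate 2 peaks, and 139 kb from 4716151 to 4855189, with 6 and 2. On the right arm the longest ran over 122 kb, from 13067088 to 13189035, with 6 and 0. It was followed by 111 kb from 12383372 to 12494350, with 3 and 0, and 92.5 kb from 12102597 to 12195129, with 2 and 0. Replicate 2 alone was empty over 220.1 kb of the right arm, from 12383374 to 12603436, where the combined list held 2 peaks and replicate 1 held 8.

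The 391 kb stretch belonged to a longer sparse run. Joining peak-free stretches of at least 100 kb that were parted by less than 10 kb, a rule added after the stretches were seen, gave a run of 656 kb from 1522869 to 2178753. This is 13.4% of the left arm. The rule also joined 2 stretches into a run of 263 kb from 3547618 to 3810372 on the same arm, with 1 combined peak, found in both replicates. The longer run held 6 combined peaks, each also present in both replicates, at 2 places. At the first place, the peak from 1661398 to 1661604 stood at the ceiling of the combined score, 9.03, and scored 38.5 in replicate 1 and 30.37 in replicate 2. Next to it lay peaks starting at 1663014 (13.38 and 12.75) and 1663488 (21.07 and 11.35). At the second place, peaks started at 2054950 (7.34 and 6.98), 2055566 (16.21 and 16.65) and 2059083 (9.72 and 4.55). The 656 kb run was therefore broken by sites that both replicates called, among them one of the highest-scoring of the arm. The rule joined no stretches on the right arm, where 2 stretches of at least 100 kb stood apart, against 10 such stretches on the left arm. Whether reads can be placed uniquely in these stretches was not tested.

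The fullest windows of the left arm lay to either side of the 656 kb run. The 50 kb window with most combined sites on the left arm was 1300001 to 1350000, with 39 peaks, 34 of them in both replicates, and 61 replicate 1 and 37 replicate 2 peaks. The second was 2170001 to 2220000, with 30 combined peaks, all 30 in both replicates, and 45 and 33 replicate peaks. The next was 1200001 to 1250000, with 29 combined peaks (23 in both) and 35 and 23 replicate peaks. The median distance between neighbouring midpoints in these windows was 951, 918 and 868 bp, and peaks covered 21.4%, 15.8% and 18.1% of their bases. Of the 22 sites of the left arm at the score ceiling, 5 lay in the window starting at 2170001 and 2 in that starting at 1300001.

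On the right arm the fullest windows held fewer sites. The first, 15190001 to 15240000, close to the chromosome end, held 24 combined peaks, 19 of them in both replicates, and 33 and 23 replicate peaks. It was followed by 12650001 to 12700000, with 18 (17 in both; 23 and 17 replicate peaks), and 13810001 to 13860000, with 17 (16 in both; 28 and 21). No site of these 3 windows stood at the score ceiling. The fullest window of the centre, 6810001 to 6860000, held 36 combined peaks, fewer than the fullest on the left arm, but its peaks were wider, with a median of 379 bp against 209 bp, and covered 36.1% of the bases.

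The change from bare to dense was sharp in places. Borders were ranked by the difference in combined peak number between the 100 kb before and the 100 kb after each point of a 10 kb grid. The largest difference on the left arm was at 2160000, with 0 combined peaks before and 47 after. Replicate 1 had 0 before and 68 after, and replicate 2 had 0 and 52. The last combined peak before it ended at 2059237 and the first after it began at 2178754, 119516 bp further on. This border was also ranked first, at the same grid point, in each replicate list alone. It is the right edge of the 656 kb run.

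The second border of the left arm went the other way. At 1380000, combined peaks fell in number from 48 to 8, replicate 1 peaks from 78 to 20 and replicate 2 peaks from 43 to 7. In the replicate lists alone it was ranked second at 1390000 and 1370000. The next, at 2410000, went from 1 to 23 combined peaks (4 to 42 in replicate 1, 1 to 23 in replicate 2), and kept its rank and position in each replicate list. The 3 left arm borders thus had the same rank and direction in all lists, within 10 kb. With flanks of 50 kb the largest difference was instead at 1300000, and with flanks of 200 kb at 1380000. With flanks of 200 kb the step at 2410000 nearly vanished, from 22 to 24 combined peaks. The steps at 2160000 (3 to 48) and 1380000 (80 to 17) remained.

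Differences on the right arm were smaller and their order was less stable across the lists. The largest, at 15170000, went from 7 to 35 combined peaks, 12 to 49 in replicate 1, and 7 to 32 in replicate 2. Only 5892 bp parted the combined peaks on either side, so it marks a step in density and not the edge of a bare stretch. In each replicate alone the first border was at 15130000. With other flanks the first border moved less than on the left arm. It was at 15190000 with flanks of 50 kb and at 15070000 with flanks of 200 kb. The second border, at 12600000, went from 1 to 22 combined peaks (3 to 28 in replicate 1, 0 to 21 in replicate 2). It kept its rank and position in replicate 2 alone but was not among the 3 largest in replicate 1 alone. The next, at 13070000, went down from 19 to 0 (37 to 3, and 19 to 0); it kept its rank in replicate 2 alone and was ranked one place higher in replicate 1 alone, at 13080000.

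**Figure D2:**
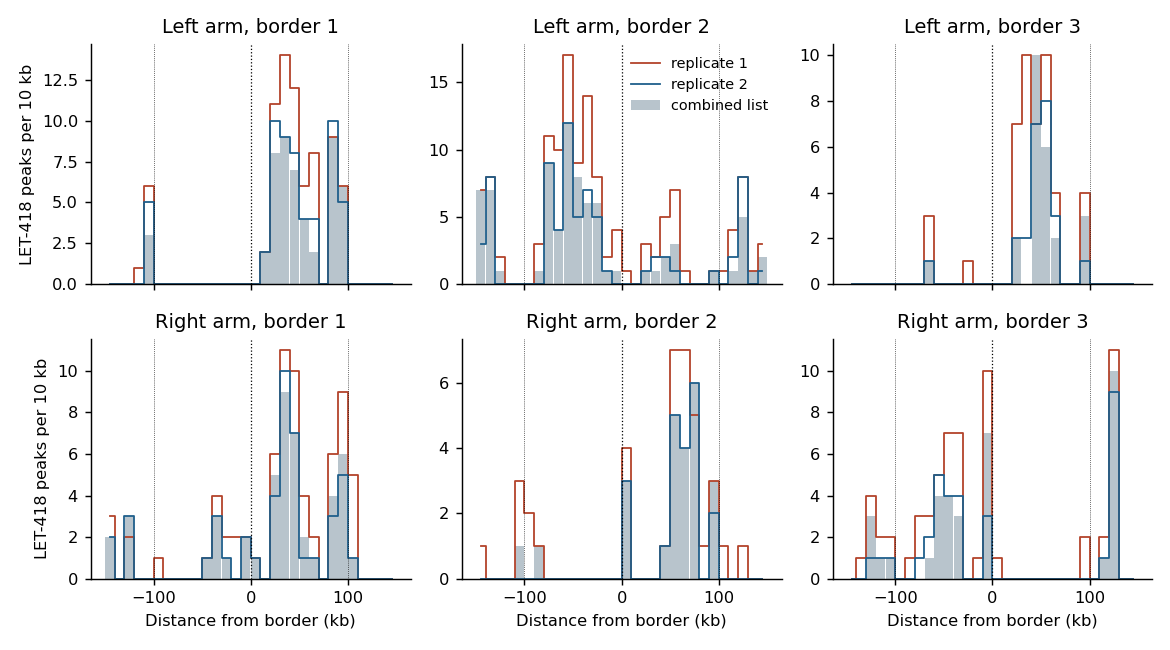
LET-418 peaks per 10 kb (y) by distance in kb from each of the 3 largest density borders of either arm (x); the dotted lines mark the border and the ends of the 100 kb flanks. Bars are the combined list and lines the replicate lists; at the first left arm border all 3 lists go from 0 peaks in the flank before to 47 combined, 68 replicate 1 and 52 replicate 2 peaks after it.

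Neighbouring sites mostly lay within a few kb of each other. The median distance between neighbouring combined midpoints was 1528 bp on the left arm (quartiles 673 and 5459 bp), 1719 bp on the right arm (674 and 7886 bp) and 1268 bp in the centre (638 and 9656 bp). In replicate 1 the medians were 1007, 1417 and 1326 bp, and in replicate 2 they were 1419, 1794 and 1344 bp. The left arm thus had the shorter median of the arms in each list, although its density was the lower. Its mean distance in the combined list, 12220 bp, exceeded the right arm's 10247 bp. Of the 396 left arm distances, 39.1% were under 1 kb, and 30 were above 50 kb. Of the 317 on the right arm, 37.2% were under 1 kb and 19 were above 50 kb. In replicate 1, the numbers above 50 kb were 24 on the left arm and 5 on the right, and in replicate 2 they were 28 and 16.

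**Figure D3:**
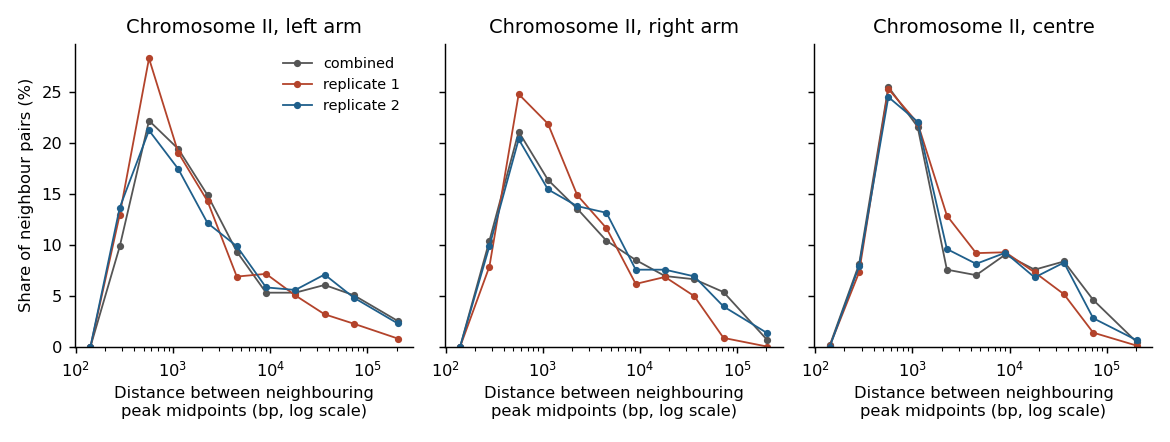
Share of neighbouring peak pairs (y, percent) by the distance between their midpoints (x, bp, log scale) in fixed classes whose limits rise by the same factor, the last class being wider. In the combined list the fullest class, from 400 bp to below 800 bp, held 22.2% of left arm and 21.1% of right arm pairs.

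Sites less than 1 kb apart were joined into regions to describe clusters. On the left arm 137 sites (34.5%) stood alone, 170 lay in 68 regions of 2 to 4 peaks, and 90 (22.7%) in 14 regions of 5 or more. On the right arm 107 (33.6%) stood alone, 141 lay in 59 regions of 2 to 4, and 70 (22.0%) in 11 regions of 5 or more. Both arms had a smaller share in regions of 5 or more than the centre, where 245 sites (33.1%) lay in 28 such regions. The fullest region of the arms ran from 14036044 to 14047216 on the right arm and held 12 combined peaks, all in both replicates, under 7 replicate 1 and 10 replicate 2 peaks. The next on that arm, 15203654 to 15209489, held 9, also all in both. On the left arm 3 regions held 9 peaks each, the first from 1236235 to 1242821 (8 in both replicates) and the second from 2245712 to 2250977 (9 in both). The fullest region of the centre held 30.

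Most arm sites were found in both replicate lists, with an overlap of at least 1 bp. On the left arm 339 of 397 sites (85.4%, 95% Wilson interval 81.6 to 88.5%) overlapped a peak of each replicate, and on the right arm 270 of 318 (84.9%, 80.6 to 88.4%). Over the whole combined list the share was 90.4%. It was 92.8% (90.8 to 94.5%) in the centre, where 688 of 741 sites were in both, an interval that does not overlap that of either arm. The intervals cover counting error only, and clustered peaks are not independent, so this difference was not tested. Nearly all of the remaining arm sites came from replicate 1: 57 on the left arm (14.4%, 11.2 to 18.1%) and 46 on the right (14.5%, 11.0 to 18.8%) overlapped replicate 1 alone. Only 1 left arm and 2 right arm sites overlapped replicate 2 alone. No site lacked a partner in both lists, and 0 of 715 sites allows a share of up to 0.534% (95% Wilson interval). Over the whole combined list it was 0 of 9187. How that list was made is not stated, so this may hold by construction, and the limit would then have no meaning.

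Sites found in both replicates were wider than the others. Their median width was 227 bp on the left arm and 247 bp on the right, against 173 bp and 177 bp for those in replicate 1 alone. Their median combined score was 4.95 and 4.21, against 2.97 and 2.67. A wide peak meets an overlap of 1 bp more easily, and how the combined list and its score were made is not stated. Either contrast may therefore hold by construction, which was not tested. The 3 sites with replicate 2 alone ran from 2942828 to 2942973, from 13780918 to 13781135 and from 14599951 to 14600147, and scored 3.82, 6.55 and 6.98 in that replicate.

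Presence in both replicates went with clustering at the 1 kb joining distance, in each arm. Sites that stood alone were in both lists in 78.1% of cases on the left arm (70.5 to 84.2%) and 78.5% on the right (69.8 to 85.2%). In regions of 2 to 4 peaks the shares were 88.2% (82.5 to 92.3%) and 85.1% (78.3 to 90.0%). In regions of 5 or more they were 91.1% (83.4 to 95.4%) and 94.3% (86.2 to 97.8%). The centre went the same way, from 86.8% (81.6 to 90.6%) through 93.1% (89.5 to 95.6%) to 98.0% (95.3 to 99.1%), and lay above both arms in each class. A wide replicate peak can overlap several combined peaks of a cluster: 19 replicate 1 and 13 replicate 2 peaks did so on the left arm, and 28 and 17 on the right. Median width and combined score also rose over the classes, from 203 to 227 bp and 3.93 to 5.3 on the left arm. On the right arm they rose from 218 to 285 bp and 3.64 to 4.26, and their part was not tested. At the 500 kb scale, presence did not follow density throughout. Bin 3 of the left arm, its densest, had 81.1%, below the arm's 85.4%, while bin 5 had 98.6%.

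**Figure D4:**
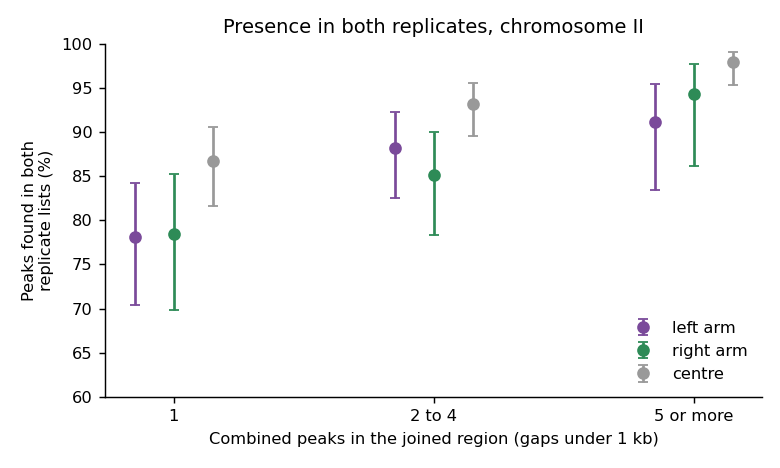
Share of combined sites found in both replicate lists (y, percent, axis from 60) by the number of sites in the joined region (x), with 95% Wilson intervals, for the left arm, right arm and centre of II. In both arms the share lies near 78% for sites that stand alone and above 91% in regions of 5 or more.

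By 500 kb bin, the share in both replicates varied more along the left arm than between the arms. It was highest in bin 5 from the left end (2000001 to 2500000), with 70 of 71 sites (98.6%, 92.4 to 99.8%), and 90 of 111 (81.1%, 72.8 to 87.3%) in bin 3, the densest. It was lowest in bin 7 (3000001 to 3500000), with 14 of 20 (70.0%, 48.1 to 85.5%), where replicate 1 held 58 peaks and replicate 2 held 19. On the right arm it ran from 34 of 46 (73.9%, 59.7 to 84.4%) in bin 4 from the end (13274828 to 13774827) to 55 of 60 (91.7%, 81.9 to 96.4%) in bin 3. The number of replicate 1 peaks per replicate 2 peak ranged from 1.42 to 3.05 over the left arm bins and from 1.48 to 2.68 over the right arm bins. It was highest, at 3.05 and 2.68, in the same bins where the share in both was lowest. The difference in depth or enrichment between the replicates is unknown, and its part in this was not tested.

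Seen from the replicate lists, most replicate 2 peaks of the arms lay on a replicate 1 peak, as over the whole list, where 91.2% of replicate 2 peaks and 55.0% of replicate 1 peaks had a partner in the other. Of its left arm peaks, 379 of 396 (95.7%, 93.2 to 97.3%) overlapped a replicate 1 peak, and of its right arm peaks 287 of 305 (94.1%, 90.9 to 96.2%), against 725 of 824 (88.0%, 85.6 to 90.0%) in the centre. Of the replicate 1 peaks, 370 of 756 (48.9%, 45.4 to 52.5%) on the left arm and 271 of 585 (46.3%, 42.3 to 50.4%) on the right overlapped a replicate 2 peak, against 735 of 1165 (63.1%, 60.3 to 65.8%) in the centre. The unshared replicate 1 peaks of the arms had a median score of 5.62 (left) and 5.21 (right) and median widths of 191 and 192 bp. The shared ones scored 11.08 and 10.22 and were 271 and 313 bp wide. Some peaks found in both replicates were not in the combined list: 47 shared replicate 1 peaks of the left arm (12.7%) and 27 of the right (9.96%), with median scores of 6.03 and 4.95. Over the whole list 1252 were left out in this way (14.1%).

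Left arm sites were narrower than those of the whole list, and right arm sites were not. The median combined width was 211 bp on the left arm (quartiles 173 and 310 bp), 230 bp on the right (181 and 332 bp) and 237 bp (182 and 371 bp) in the centre, against 229 bp over the whole list. The whole-list medians were 227 bp in replicate 1 and 249 bp in replicate 2. The left arm had the lowest median of the 3 regions of II in each replicate, 222 bp against 233 bp on the right arm and 230 bp in the centre in replicate 1, and 228 bp against 253 and 266 bp in replicate 2. The differences were not tested. Peaks wider than 1 kb numbered 3 on the left arm (0.756%) and 8 on the right (2.52%), against 22 (2.97%) in the centre. The narrowest peak was 146 bp in each arm and list. Combined peaks covered 2.24% of the left arm and 3.03% of the right arm.

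The widest peak of each arm had nearly the same borders in both replicates. On the left arm the widest ran from 3054732 to 3055897 (1166 bp), with 1 replicate 1 peak from 3054719 to 3055905 (score 23.15) and 1 replicate 2 peak from 3054724 to 3055899 (score 12.82). It was followed by 1239037 to 1240172 (1136 bp), which lay over 2 replicate 1 peaks starting from 1239059 and 1 replicate 2 peak starting at 1238642, and by 2921755 to 2922779 (1025 bp). On the right arm the widest ran from 13334279 to 13336133 (1855 bp), with replicate peaks from 13334049 to 13336135 (22.37) and from 13334145 to 13336164 (10.89). The next were 14404293 to 14405799 (1507 bp) and 14040438 to 14041936 (1499 bp); under the latter the replicate peaks started at 14039603 and 14039542. Over all sites with 1 partner that itself had 1 partner, the midpoints of combined and replicate peaks differed by a median of 8.50 bp in replicate 1 and 7.00 bp in replicate 2 on the left arm (352 and 310 sites), and by 11.0 and 8.50 bp on the right (256 and 233 sites). The combined peak was the narrower one, with a median width ratio of 0.835 and 0.948 on the left and 0.812 and 0.952 on the right.

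The score of a peak is the authors' own; its scale is not given, so scores only order peaks within a list. Left arm sites stood higher in their lists than right arm sites. Of the left arm sites, 253 of 397 (63.7%, 58.9 to 68.3%) scored at or above the median of the whole combined list, against 157 of 318 (49.4%, 43.9 to 54.8%) on the right arm and 337 of 741 (45.5%, 41.9 to 49.1%) in the centre. The replicate lists gave 57.4% (53.9 to 60.9%) and 60.4% (55.5 to 65.0%) on the left arm. They gave 50.6% (46.6 to 54.6%) and 49.8% (44.3 to 55.4%) on the right arm, and 47.9% (45.0 to 50.8%) and 48.3% (44.9 to 51.7%) in the centre. The left arm was thus above the other regions of II in all 3 lists. Its interval overlapped none of theirs in the combined list, and only that of the right arm in replicate 1. In replicate 2 it began at 55.46%, barely above the 55.41% where that of the right arm ended. The intervals cover counting error only and clustered peaks are not independent, so their overlap is no test, and the difference was not tested.

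At the ceiling of the combined score, 9.03, stood 22 left arm sites (5.54%, 3.69 to 8.25%), 6 right arm sites (1.89%, 0.868 to 4.05%) and 6 sites of the centre (0.810%, 0.372 to 1.76%), against 2.68% of the whole list. The 22 left arm sites had a median replicate 1 score of 31.17, between 21.07 and 46.44, and a median replicate 2 score of 20.96, between 6.55 and 37.22. The 6 on the right arm scored 24.96 to 42.55 and 11.7 to 34.45. In replicate 2 the share of peaks among the best 5% of the list was 8.59% on the left arm (6.21 to 11.8%) and 3.61% on the right (2.03 to 6.34%). In replicate 1 the intervals of the arms overlapped widely, with 6.61% (5.05 to 8.61%) and 5.98% (4.33 to 8.21%).

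Single strong sites stood out on both arms. The left arm sites with the highest summed ranks in the replicates were 3523643 to 3523888 (246 bp), with scores of 46.44 and 36.88, 4047884 to 4048187 (304 bp), with 45.73 and 37.22, and 732497 to 732765 (269 bp), with 42.87 and 33.81. The first of the right arm, 14561687 to 14561913 (227 bp), scored 42.55 and 34.45 and had its nearest combined neighbours 64832 bp before and 7643 bp after it. The next sites, 14235838 to 14236127 and 14236176 to 14236738, lay under the same peak of each replicate, with scores of 31.17 and 18.46. The last of these was 563 bp wide, while the first right arm site, at 227 bp, was just below its arm's median of 230 bp. The 3 left arm sites were each wider than the left arm's median of 211 bp. The nearest combined midpoint to any of the 3 named left arm sites lay 1876 bp away. The combined site nearest the left chromosome end ran from 18895 to 19217 (20.59 and 9.17), and the one nearest the right end from 15271463 to 15271656 (5.21 and 2.51).

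Across sites with 1 peak in each list, the scores of the replicates went together on both arms. Pearson's r was 0.83 and Spearman's rho 0.76 over 281 left arm sites, and 0.72 and 0.66 over 197 right arm sites, against 0.70 and 0.62 over 492 sites of the centre. These are correlations across peaks that passed the threshold in both lists, and they are not independent replicates. Width and score went together only loosely, with a Spearman rho of 0.25 in replicate 1 and 0.17 in replicate 2 on the left arm, and 0.27 and 0.39 on the right.

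**Figure D5:**
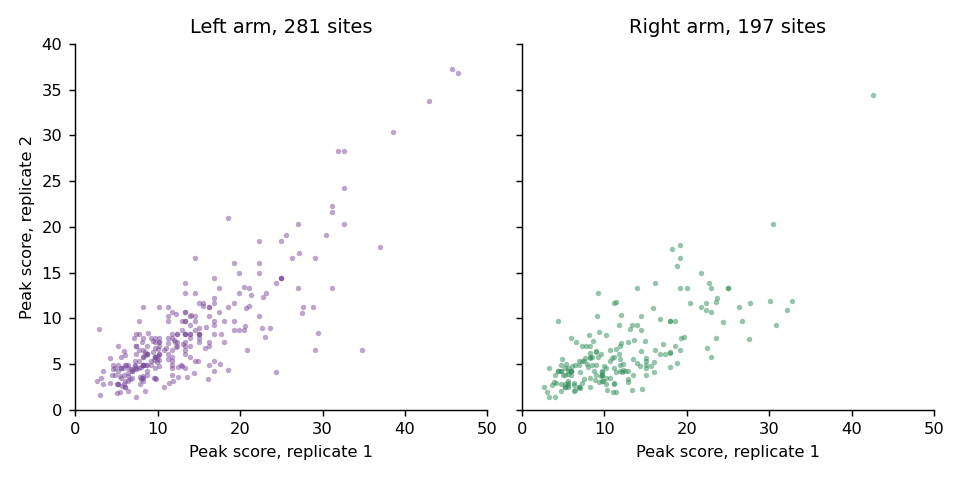
Peak score in replicate 1 (x) and replicate 2 (y), on the authors' unstated scale, for the 281 left arm and 197 right arm sites with 1 peak in each list. Each point is a site; Spearman's rho is 0.76 on the left arm and 0.66 on the right.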

How the data were processed

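LET-418 ChIP-seq peak lists of 2 replicates and 1 combined list of the same series were used. Per the labels' protocols, ground worms were crosslinked with EGS and formaldehyde and the chromatin sonicated. The submitters' processing notes name BWA and the ce10 build. Per the file headers, positions are on WormBase WS220, and the lists name MACS as the caller. The sources used here do not give versions, read filters, the peak threshold, the use of the input or the way the replicates were combined. A deposited row gives a peak's chromosome, its start and end counted from 1, and its score by the authors, on an unknown scale.

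Peaks were assigned to an arm by midpoint. Overlap means at least 1 bp. Neighbour distances and peak-free stretches were taken within an arm, and peaks less than 1 kb apart were joined. Windows were 50 kb, bins 500 kb and border flanks 100 kb on a 10 kb grid, with borders at least 200 kb apart. Shares have 95% Wilson intervals. There is 1 group, so no test was run. The code was tested on simulated lists. Values were computed in Python 3.11.15 with pandas 2.3.3 and NumPy 2.4.6, intervals with SciPy 1.17.1, and plots with matplotlib 3.10.9.

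The sites, rules and alternatives were chosen with earlier results of these data known. For each arm, the rule named the 3 longest peak-free stretches, fullest 50 kb windows, largest borders, widest peaks and sites of highest summed replicate rank, the 2 fullest joined regions and the site nearest the chromosome end. Alternatives were other overlap rules, flanks, joining distances and arm limits, covered bases, the better-scoring peaks (score not below the list's median), each replicate list in place of the combined list, and, added after seeing the data, combined peaks found in both replicates and better-scoring combined peaks against the full replicate lists.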

Additional observations from a re-analysis of the deposited data

How the results depend on the processing

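Of 82 alternative values for 14 results, 45 stayed within the spread of the replicate lists (for shares the Wilson interval, for counts 1.5 times), and 37 moved further. The spread was the standard deviation of the 2 replicate values, which were themselves among the alternatives. It was 0.00286 for the left to right ratio, so all its alternatives moved, but 146 kb for the longest left arm stretch. The numbers 45 and 37 are therefore no measure of stability. When a single replicate's list replaced the combined one, the left to right density ratio was 0.862 to 0.866 and the arms to centre ratio 0.747 to 1.01. Likewise, for the left and right arm in turn, the median width was 222 to 228 and 233 to 253 bp, the median spacing 1007 to 1419 and 1417 to 1794 bp, the longest peak-free stretch 184 to 391 and 90.6 to 220.1 kb, the largest border difference 520 to 680 and 250 to 380 peaks per Mb (470 and 280 in the combined list), and the fullest joined region 10 to 15 and 10 to 12 peaks. For the better-scoring combined peaks, both density ratios passed to the other side of 1 (1.08 and 1.07). Cut in the same way, replicate 1 kept the right arm ahead of the left, and replicate 2 kept the centre ahead of the arms. For the same combined peaks, widths were 225 and 260 bp and spacings 2208 and 5427 bp. The right arm border difference was 150 per Mb, and the fullest region of that arm held 5 peaks. With fewer peaks, spacing grows by construction. When the replicate lists were also reduced to their better-scoring peaks, which leaves fewer to overlap, the share in both replicates was 82.2% on the left arm and 70.7% on the right. Against the full replicate lists, an alternative added after seeing the data, it was 94.9% and 94.3% of the better-scoring combined peaks. The left to right ratio was 0.846 with arm limits 250 kb nearer the ends, 0.738 for covered bases and 0.838 for peaks found in both replicates. The last setting also gave widths of 227 and 247 bp and a longest right arm stretch of 220.1 kb. Free of all 3 lists, the longest left arm stretch was 184 kb. Border differences were 740 and 400 per Mb with flanks of 50 kb, and 315 and 155 with 200 kb. Joining within 2 kb gave 23 peaks in the fullest left arm region. A reciprocal overlap of 50% gave shares of 68.0% and 59.7%. Apart from the effects of construction named, the cause was not tested. No paired analysis was possible because only the ChIP group has peak lists. Depth is unknown.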

Other observations

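Some arm sites stood at unlike places in the 2 replicate lists, or in only 1 of them. The site at the score ceiling from 2800957 to 2801546 on the left arm scored 34.78 in replicate 1 and 6.55 in replicate 2, the lowest replicate 2 score among the 22 left arm sites at the ceiling. In replicate 1 this was among the best 5% of the list, whose limit was 21.0. In replicate 2 it was above the list's median of 5.14 but below the limit of the best 5%, 14.36. The highest-scoring replicate 1 peaks of the arms without a replicate 2 partner ran from 3428781 to 3429003 on the left arm (22.97, present in the combined list) and from 13061634 to 13061917 on the right arm (19.39, not in the combined list). The highest replicate 2 peaks without a replicate 1 partner scored 6.13 on the left arm (2246264 to 2246427) and 6.98 on the right (14599903 to 14600223). These sites were chosen after their values were seen.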
